A study of Homo sapiens with 4 samples.

Results

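The genes described here are 9 members of the large MAF, small MAF and CNC groups of basic leucine zipper transcription factors, out of 43450 gene IDs measured in BLaER1 cells. They are the large MAF genes MAFA, MAF and NRL, the small MAF genes MAFF, MAFG and MAFK, and the CNC partner genes BACH1, NFE2L1 and NFE2L2. Each was found by its Ensembl ID in the deposited expression table. The set was selected on gene family with the measured expression values of HAL7 knockdown and control libraries already in view, so the difference between these groups is given for the 9 genes as a description, without a test. BLaER1 is a human B cell leukaemia line with an inducible transgene of C/EBPα, through which it can be turned into macrophage-like cells; the labels mention no induction. The knockdown group (n = 2 libraries, replicates 0 and 1) had received 3 LNA GapmeRs, antisense oligonucleotides that direct RNase H to the long non-coding RNA HAL7, in the medium without transfection. The control group (n = 2 libraries, replicates 0 and 1) was of the same line; their own treatment, and how long either group was treated, are not stated in the labels used. The labels do not say whether the replicates were separate cultures, so the spread between them, and every p-value, may be technical.

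MAF proteins bind a palindromic DNA element, the MAF recognition element, as dimers. Large MAF proteins carry a transactivation domain and act in cell fate: MAFA in insulin-producing beta cells, MAF in lymphocytes, macrophages and the lens, and NRL in rod photoreceptors. Small MAF proteins lack that domain and pair with CNC proteins. The CNC activators NRF1 and NRF2, encoded by NFE2L1 and NFE2L2, drive proteasome and antioxidant genes with a small MAF partner. BACH1 with a small MAF represses haem oxygenase and ferritin genes until haem releases it.

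Some members carry relatives of this element upstream of a start that RefSeq annotates for them. RefSeq promoter windows on GRCh38.p14, from 250 bases before to 50 after a start, were given for 7 members, 13 windows in all; none was used for MAFA and MAFK. The motifs searched on both strands were the TPA response element TGACTCA, the cAMP response element TGACGTCA and the antioxidant response element core TGACNNNGC. The longer T-MARE and C-MARE are the TPA and cAMP elements preceded by TGC and followed by GCA, and their shared arm TGCTGAC was searched as well. Matches lay in BACH1, MAF and MAFF, shown here 5′ to 3′ on the gene's strand with the match in capitals, which for BACH1 and for the second MAFF match lies on the opposite strand; both MAFF matches are in the same window.
BACH1 (TPA response element, chr21:29298862-29298892, plus strand): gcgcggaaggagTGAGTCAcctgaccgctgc
MAF (cAMP response element, chr16:79600763-79600794, minus strand): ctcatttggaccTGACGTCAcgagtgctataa
MAFF (cAMP response element, chr22:38201928-38201959, plus strand): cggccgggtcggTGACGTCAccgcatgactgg
MAFF (antioxidant response element core, chr22:38201860-38201892, plus strand): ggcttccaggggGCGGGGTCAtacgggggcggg
The match began at -48 in BACH1, at -45 in MAF, and at -54 and -122 in MAFF, counted from the RefSeq start of the window. In BACH1 and MAFF the matches lie inside the gene span of GENCODE 29, downstream of its first base. The TPA element was present in 4.95% of 35116 windows, the cAMP element in 1.85%, the antioxidant core in 13.3%, the arm TGCTGAC in 4.19%, and the T-MARE and C-MARE in 0 windows. These are matches of letters and say nothing of binding.

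In the deposited values, HAL7 itself was at 0.475 and 0.347 FPKM in knockdown libraries, against 0.726 and 0.613 FPKM in control libraries, a ratio of means of 0.614. FPKM is a fragment count scaled to transcript length and library size, so levels can be set side by side between genes. The depth that the spacing of low FPKM values implied was 1.78 and 1.58 times that of control replicate 0 in knockdown replicates 0 and 1, and 2.11 times in control replicate 1, the deepest library. Of the B lineage markers 14 of 15 were in the table and all of these were tested, with summed levels of 5105 and 5098 FPKM in knockdown and 5336 and 5303 FPKM in control libraries. Their most abundant genes DNTT, IGLL1, VPREB3 and VPREB1 stood at ratios of 0.975, 0.996, 0.893 and 1.11. RAG1 had the lowest log2 change at a ratio of 0.827 (limma adjusted p = 0.20). Of the 14, 12 had a negative and 2 a positive log2 change, which was positive in 46.8% of all tested genes. Both knockdown libraries lay below both control libraries in 7 and above in 1, layouts found in 27.7% and 22.5% of all tested genes. In limma 0 passed. At an unadjusted p under 0.05, 3 were lower and 0 higher, against 9.36% and 7.25% of all tested genes. Macrophage and monocyte markers summed to 37.1 and 40.6 FPKM in knockdown and 39.8 and 39.1 FPKM in control libraries. CSF1R, a cytokine receptor gene, made up most of that sum, S100A8 and S100A9 were listed at 0 in all 4 libraries, and 13 of 15 markers stayed under 1 FPKM. CSF1R itself stood at a ratio of 1.01, and CD68, a lysosomal gene and the other marker tested, at 2.43 and 1.995 FPKM in knockdown and 2.73 and 3.21 FPKM in control libraries, with the groups apart and a limma adjusted p of 0.24. T and NK cell markers summed to 25.7 and 20.7 FPKM in knockdown and 31.7 and 30.8 FPKM in control libraries, 10 of 12 of them under 1 FPKM everywhere. CD3D, CD3G and CD2 were listed at 0 in all libraries, and the sum was mostly NKG7, at 21.9 and 17.2 FPKM in knockdown and 27.5 and 27.0 FPKM in control libraries (limma adjusted p = 0.19). NCAM1, the other one tested, stood at a ratio of 0.927 with overlapping groups. The part of these markers in the differences given here was not tested.

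The 9 genes differed widely in level. NFE2L1 and NFE2L2 were the most abundant, with means over the 4 libraries of 34.9 and 30.3 FPKM, followed by MAFG at 17.6, BACH1 at 12.3 and MAFK at 11.9 FPKM. MAFA averaged 2.33, MAFF 1.16, NRL 0.994 and MAF 0.00269 FPKM. The library values of BACH1 and MAFK overlapped, at 12.2 to 12.7 and 11.5 to 12.5 FPKM, and so did those of MAFF and NRL, at 1.08 to 1.23 and 0.878 to 1.11 FPKM. All other neighbours in this order were apart in all 4 libraries. A mean of at least 1 FPKM was required for the fit across all genes; 7 of the 9 passed it, and NRL and MAF did not.

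MAFA was the member that differed most between the groups. It had 1.52 and 1.67 FPKM in knockdown replicates 0 and 1, against 3.02 and 3.12 FPKM in control replicates 0 and 1. Both knockdown libraries lay well below both control libraries, and the gap between the groups was many times the distance between replicates. The means were 1.60 ± 0.109 FPKM in knockdown and 3.07 ± 0.0674 FPKM in control libraries (SD, n = 2 each), a ratio of 0.519. In bulk libraries, fewer cells with the transcript and less of it per cell cannot be told apart. On the log2(FPKM + 1) scale, which understates changes of low genes, the difference was -0.65 ± 0.05 (SE). It was -0.90 with 0.1 added to FPKM in place of 1, and -0.29 with 5 added. Of 12934 genes tested, 25, MAFA among them, had a ratio of means as low or lower (0.193%). This share is a description and not a p-value, since the set was chosen with these values in view. No share among genes of like level was taken. Over its longest transcript of 2347 nt, the MAFA values stood for about 382 and 372 fragments in knockdown and 427 and 929 fragments in control libraries.

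**Figure D1:**
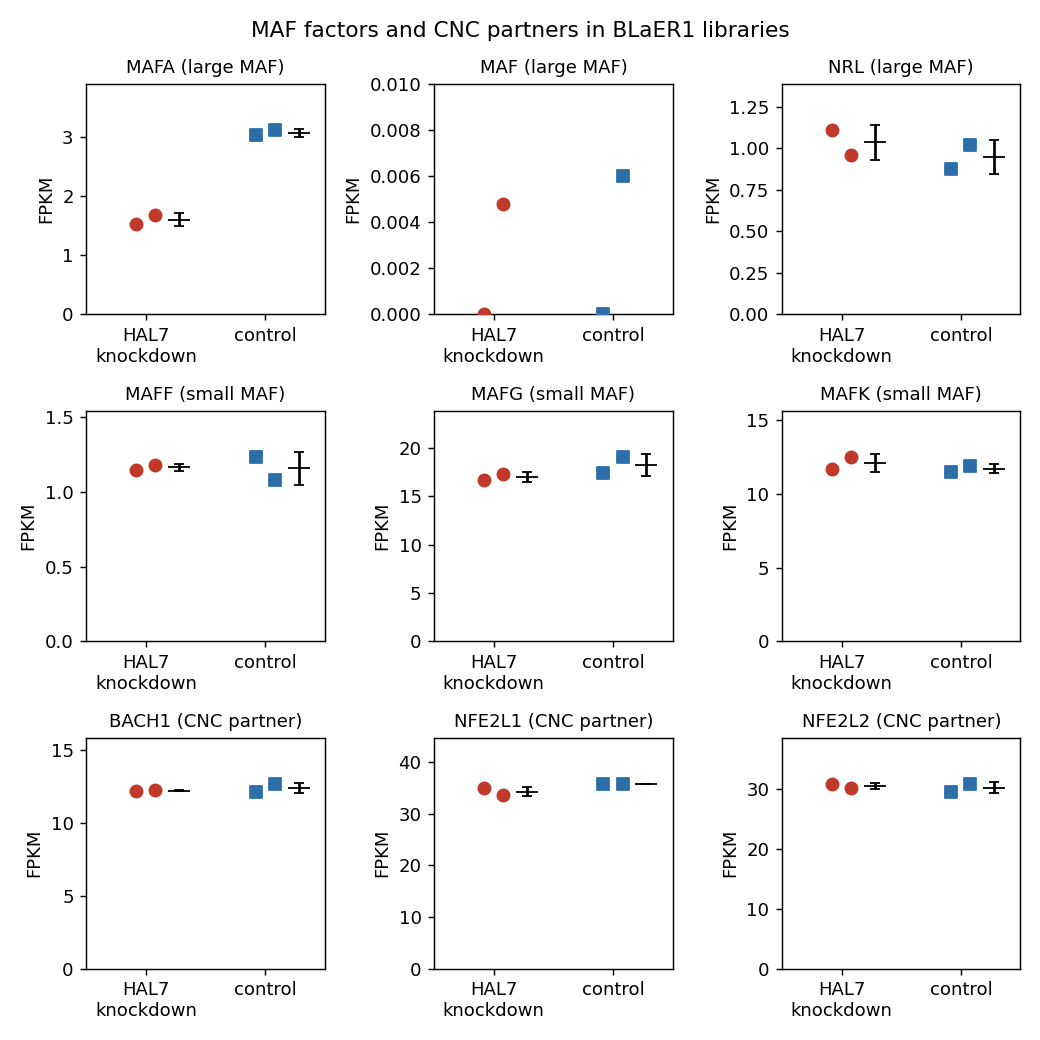
FPKM of each of the 9 genes in the knockdown libraries (circles) and control libraries (squares), with group means and SD bars (n = 2 each; none for MAF, listed at 0 in 1 library of each group). MAFA shows 1.52 and 1.67 FPKM against 3.02 and 3.12 FPKM, while in the other panels the groups lie close together.

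The other large MAF genes were scarce. MAF, also known as c-MAF, was listed at 0 in replicate 0 of both groups, at 0.00477 FPKM in knockdown replicate 1 and at 0.00599 FPKM in control replicate 1. No fold is given for it, since these values are at the edge of detection. NRL had 1.11 and 0.961 FPKM in knockdown and 0.878 and 1.02 FPKM in control libraries, and the groups overlapped. Exons of NRL overlap DCAF11 on the opposite strand, which was at 32.6 and 32.9 FPKM in knockdown and 33.2 and 35.3 FPKM in control libraries. Strand-specific counting is not stated, so reads of these 2 genes may not have been told apart. MAFA made up 57.7% and 63.4% of the summed large MAF level in knockdown libraries, against 77.5% and 75.2% in control libraries.

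The small MAF genes stood at knockdown over control ratios of 0.931 to 1.03. MAFG, the most abundant of them, had 16.6 and 17.3 FPKM in knockdown and 17.4 and 19.0 FPKM in control libraries, a ratio of 0.931. The groups were apart, but knockdown replicate 1 and control replicate 0 nearly touched. MAFG shares exon sequence with SIRT7, a sirtuin gene on the same strand, which was at 16.7 and 17.1 FPKM in knockdown and 17.2 and 18.7 FPKM in control libraries. Reads of the shared sequence cannot be told apart by strand, and whether reads of SIRT7 were counted to MAFG was not tested. The level of MAFG, and the sums and shares that hold it, carry this limit. MAFK had 11.7 and 12.5 FPKM in knockdown and 11.5 and 11.9 FPKM in control libraries. MAFF, the least abundant, had 1.14 and 1.18 FPKM in knockdown and 1.23 and 1.08 FPKM in control libraries. For MAFK and MAFF the groups overlapped.

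Summed, the small MAF genes reached 29.4 and 31.0 FPKM in knockdown and 30.2 and 32.0 FPKM in control libraries. MAFG gave 56.5% and 55.9% of that sum in knockdown and 57.8% and 59.5% in control libraries. The small MAF sum was 0.378 and 0.408 of the sum over the 3 CNC partners in knockdown and 0.390 and 0.405 in control libraries. The summed level of the small MAF genes was thus well under that of these 3 CNC partners in each library. Gene by gene this did not hold, since MAFG lay above BACH1 in all 4 libraries and MAFK overlapped BACH1.

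The CNC partners stood at ratios of 0.960 to 1.01. NFE2L1 had 34.9 and 33.6 FPKM in knockdown and 35.7 and 35.6 FPKM in control libraries, a ratio of 0.960, with the groups apart by less than 1 FPKM. NFE2L2 had 30.8 and 30.1 FPKM in knockdown and 29.5 and 30.8 FPKM in control libraries. BACH1, the repressor, had 12.2 and 12.3 FPKM in knockdown and 12.2 and 12.7 FPKM in control libraries. The groups overlapped for NFE2L2 and BACH1. The level of BACH1 relative to NFE2L2 was 0.396 and 0.408 in knockdown and 0.412 and 0.412 in control libraries.

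Of the 7 tested members, 3 had both knockdown libraries below both control libraries (MAFA, MAFG and NFE2L1), a layout found in 27.7% of all tested genes, and 0 had both above, as in 22.5% of tested genes; groups were apart in either direction in 50.3% of tested genes. Their median log2 change was -0.02, and that of all tested genes -0.01. Without MAFA and the near-silent MAF, the ratios of the 7 remaining members ran from 0.931 for MAFG to 1.09 for NRL. Some of these transcripts overlap other genes in the annotation: NFE2L2 shares exon sequence with AGPS on the opposite strand, at 17.0 and 16.6 FPKM in knockdown and 16.5 and 14.8 FPKM in control libraries, and MAFK with TMEM184A, at 0.515 and 0.649 FPKM in knockdown and 0.490 and 0.523 FPKM in control libraries. Further overlapping genes were low: GRIK1 and LINC00189 over BACH1 stayed at or under 0.0206 FPKM, and AC019080.1 and AC079305.1 over NFE2L2 ranged from 0.682 to 1.41 FPKM over the 4 libraries.

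By GENCODE 29 on GRCh38, each member is a protein-coding gene on its own locus. On the minus strand, MAF lies at chr16:79585843-79600714, NRL at chr14:24080107-24115014, MAFG at chr17:81918270-81927714 and NFE2L2 at chr2:177227595-177392697. On the plus strand, MAFF lies at chr22:38200767-38216511, MAFK at chr7:1530714-1543043, BACH1 at chr21:29194071-29630751 and NFE2L1 at chr17:48048329-48061487. MAFG and NFE2L1 share chromosome 17 but not a neighbourhood.

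The members also differed in base composition, which tracked the log2 change across the table. The longest transcripts ran from 38.6% GC in BACH1 and 45.6% in NFE2L2 to 63.4% in MAFK and 65.0% in MAFA. Across the 12498 tested genes with a GC value, the Spearman rho between GC content and log2 change was -0.41, a description over genes, which share their libraries. The median log2 change was 0.06 in 1958 genes under 40% GC and -0.09 in 1828 genes at 60% GC or more. With the GC trend taken out of each library, the MAFA difference was -0.56, MAFK stood at 0.12, MAFF at 0.07, MAFG at -0.05, NFE2L1 at -0.02, NFE2L2 at -0.01 and BACH1 at -0.09. MAFA therefore stayed far below the median of genes of like GC content, and BACH1, MAFK and MAFF moved away from 0.

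**Figure D2:**
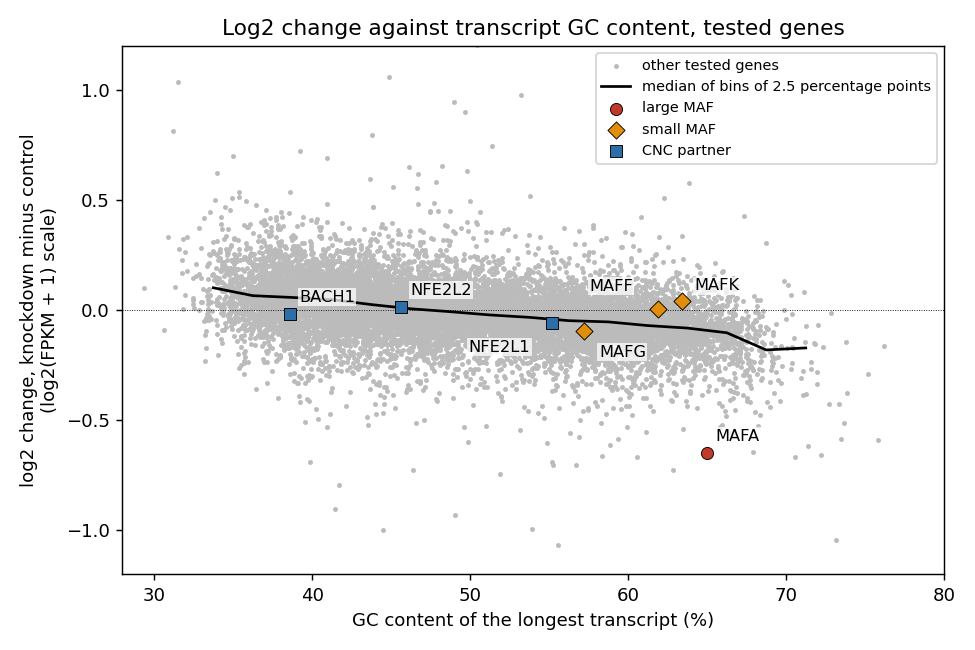
Log2 change, knockdown minus control, against the GC content of the longest transcript for tested genes (grey), with the median of bins holding at least 20 genes (line) and the 7 tested members by class; 16 genes lie beyond the vertical range shown. The line falls towards high GC content, and MAFA at 65.0% GC and -0.65 lies far under it.

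MAFA is a protein-coding gene on the minus strand of chromosome 8, from 143419182 to 143430406 (GENCODE 29, GRCh38). The nearest tested genes were MAFA-AS1, on the opposite strand with its end 31 nt beyond the 3′ end of MAFA, and ZC3H3, a zinc finger protein gene 7248 nt from its start. MAFA-AS1 was far more abundant than MAFA, at 22.8 and 22.1 FPKM in knockdown and 25.9 and 26.0 FPKM in control libraries, a ratio of 0.865 and a log2 change of -0.20 ± 0.05 (SE), with a limma adjusted p of 0.20. The level of MAFA relative to MAFA-AS1 was 0.0665 and 0.0758 in knockdown and 0.117 and 0.120 in control libraries, so the 2 genes did not differ by the same factor. Whether reads of MAFA-AS1 were counted to MAFA was not tested. ZC3H3 had 11.3 and 11.0 FPKM in knockdown and 12.4 and 11.6 FPKM in control libraries, with a limma adjusted p of 0.46.

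Within 500 kb of MAFA, 27 further genes were tested. Of these, 20 had a negative log2 change, with a median of -0.07, and 0 passed limma's adjusted p of 0.05, which 0.0309% of all tested genes did (0.0232% lower and 0.00773% higher). At an unadjusted limma p under 0.05, 8 were lower and 0 higher, against 9.36% and 7.25% of all tested genes. Both knockdown libraries lay below both control libraries in 11, and above in 0, layouts found in 27.7% and 22.5% of all tested genes. Over all tested genes the log2 change was positive in 46.8%, with a median of -0.01. The median GC content of the genes near MAFA was 62.9%, above the 48.6% of all tested genes. Tested genes at 60% GC or more had a median log2 change of -0.09. LY6H, a gene of the Ly6 membrane protein family, differed most among the genes within 500 kb of MAFA. It had 7.33 and 6.92 FPKM in knockdown and 11.8 and 11.6 FPKM in control libraries, and was also named by likeness to MAFA.

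**Figure D3:**
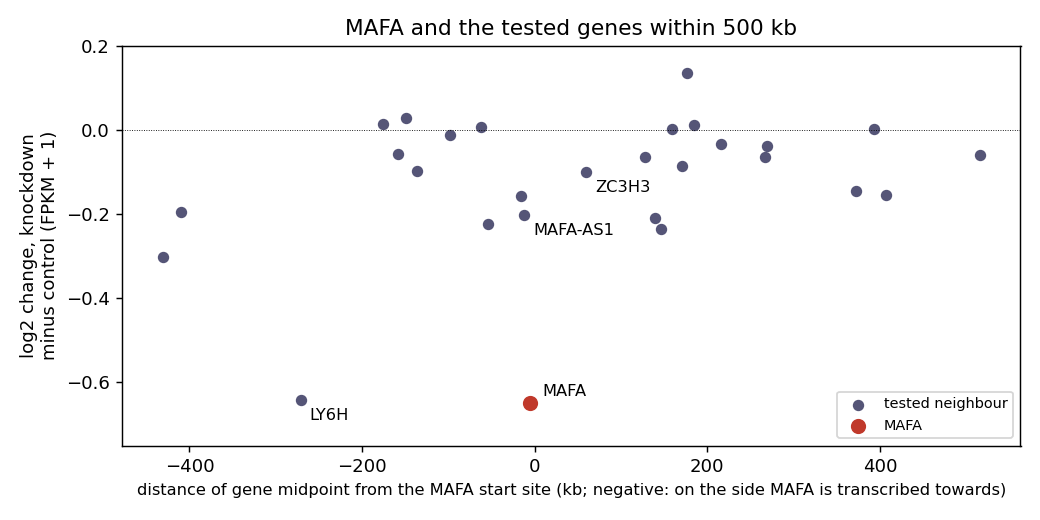
Log2 change, knockdown minus control, of MAFA and of 27 tested genes within 500 kb, by the distance of each gene's midpoint from the MAFA start site. MAFA at -0.65 and LY6H at -0.64 lie apart from the other genes, most of which are between -0.3 and 0.1.

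The tested genes whose pattern over the 4 libraries was most like that of MAFA were ITGB7, LY6H and SLC25A29. Likeness was the root mean square difference of centred log2(FPKM + 1) values, which was 0.0441 for ITGB7, 0.0601 for LY6H and 0.0626 for SLC25A29. SLC25A29, a mitochondrial carrier gene on chromosome 14, had 32.0 and 34.0 FPKM in knockdown and 49.0 and 56.9 FPKM in control libraries. With 4 libraries in 2 groups, such a ranking mainly picks genes with a similar group difference.

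ITGB7, an integrin subunit gene known as a target of c-MAF in lymphoid cells, was also on the list of large MAF target genes. It had 4.84 and 5.13 FPKM in knockdown and 7.62 and 8.33 FPKM in control libraries, with the groups well apart. The means were 4.99 ± 0.202 FPKM in knockdown and 7.97 ± 0.501 FPKM in control libraries (SD, n = 2 each), a ratio of 0.625. The log2 change of -0.58 ± 0.07 (SE) did not pass, with a limma adjusted p of 0.15 and an unadjusted p of 0.000139. These p-values come from the same contrast through which ITGB7 was named by likeness to MAFA, so they are no separate support. MAF, the gene of c-MAF, was at 0 to 0.00599 FPKM, and a link of ITGB7 to a MAF factor was not tested. The ITGB7 result varied with the processing. Its adjusted p ran from 0.050 to 0.54 over the other settings tried and was never under 0.05, and its log2 change was -0.53 with the GC trend removed.

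Most of the other large MAF targets were under 1 FPKM in this line. Of 22 listed, 21 were in the table, 18 stayed under 1 FPKM in every library, 6 of which were listed at 0 in all, and 3 were tested. INS, the insulin gene that MAFA activates in beta cells, and PDX1, a beta cell factor gene, were listed at 0 in all 4 libraries. CCND2, a D cyclin gene that c-MAF raises in myeloma, had 0.0572 and 0.130 FPKM in knockdown and 0.0521 and 0.0644 FPKM in control libraries. DEPTOR, also listed and under the filter, had 0.864 and 0.988 FPKM in knockdown and 0.745 and 0.762 FPKM in control libraries. Its ratio was 1.23, with the groups apart. PDE6B, a rod phosphodiesterase subunit gene, was among the tested genes, at 8.26 and 7.43 FPKM in knockdown and 8.39 and 8.16 FPKM in control libraries. In limma 0 of the 3 passed, and 1, ITGB7, had an unadjusted p under 0.05, as did 16.6% of all tested genes.

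Further CNC genes were expressed beside the 3 partners. BACH2, a repressor of the plasma cell fate in B cells, had 18.8 and 17.2 FPKM in knockdown and 18.4 and 18.8 FPKM in control libraries, above BACH1 in each library. NFE2L3 had 9.96 and 9.87 FPKM in knockdown and 9.42 and 9.15 FPKM in control libraries. NFE2, the factor of globin and platelet genes, had 1.86 and 1.93 FPKM in knockdown and 2.26 and 2.72 FPKM in control libraries, a ratio of 0.760 and a limma adjusted p of 0.25. In limma 0 of the 3 passed, and NFE2 alone had an unadjusted p under 0.05, as did 16.6% of all tested genes.

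Regulators of NRF1, NRF2 and BACH1 showed no common direction. Of 22 genes, 21 were tested, 10 had a positive and 11 a negative log2 change, and the median was -0.00. In limma 0 passed in either direction. At an unadjusted p under 0.05, 2 were higher and 0 lower, against 7.25% and 9.36% of all tested genes. RBX1, a subunit of the ligase through which KEAP1 marks NRF2 for degradation, had the highest log2 change, with 26.7 and 27.4 FPKM in knockdown and 24.6 and 23.6 FPKM in control libraries (limma adjusted p = 0.24). CUL3 was the other with an unadjusted p under 0.05, at 34.8 and 33.1 FPKM in knockdown and 31.5 and 29.2 FPKM in control libraries (limma adjusted p = 0.28). FBXL17, which targets BACH1, had the lowest log2 change, with 9.94 and 8.82 FPKM in knockdown and 10.0 and 11.5 FPKM in control libraries (limma adjusted p = 0.36). The 4 most abundant were OGT, SYVN1, NGLY1 and SQSTM1, at ratios of 0.924, 0.997, 0.997 and 0.917. NGLY1, which deglycosylates NRF1, and SYVN1, a ligase of the endoplasmic reticulum, had overlapping groups. SQSTM1, which sequesters KEAP1, had 49.9 and 49.5 FPKM in knockdown and 53.0 and 55.3 FPKM in control libraries.

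Genes that NRF2 is known to drive were spread around 0. Of 30 antioxidant and thiol genes, 29 were in the table and 19 were tested, with 8 positive and 11 negative log2 changes and a median of -0.01. In limma 0 passed, and 0 were higher and 2 lower at an unadjusted p under 0.05, against 7.25% and 9.36% of all tested genes. The most abundant were PRDX1, SOD1, TXN and PRDX6, which encode peroxiredoxins, a superoxide dismutase and thioredoxin, at ratios of 1.12, 1.04, 1.02 and 1.02. PRDX1 also had the highest log2 change, with 1380 and 1589 FPKM in knockdown and 1344 and 1296 FPKM in control libraries (limma adjusted p = 0.36). EPHX1, an epoxide hydrolase gene, had the lowest log2 change, with 4.06 and 3.54 FPKM in knockdown and 4.60 and 4.67 FPKM in control libraries (limma adjusted p = 0.25). NQO1, a quinone reductase gene and a canonical NRF2 target, was the other with an unadjusted p under 0.05, at 2.53 and 2.84 FPKM in knockdown and 3.08 and 3.48 FPKM in control libraries (limma adjusted p = 0.30). Of 9 NADPH supply genes, 8 were tested, 4 positive and 4 negative, with a median of 0.02. In limma 0 of them passed. At an unadjusted p under 0.05, 1 was higher and 0 lower, against 7.25% and 9.36% of all tested genes. TKT, MTHFD2, PGD and TALDO1 stood at ratios of 0.952, 1.04, 1.03 and 0.990, and PPAT, a purine synthesis gene with the highest log2 change, at 1.21.

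Haem and iron genes, which BACH1 is known to repress in part, were also mixed. Of 19 genes, 18 were in the table and 16 were tested, 7 positive and 9 negative, with a median of -0.03. In limma 0 passed, and 0 were higher and 3 lower at an unadjusted p under 0.05, against 7.25% and 9.36% of all tested genes. The ferritin chain genes were among the 3 lower ones: FTL had 1053 and 1054 FPKM in knockdown and 1136 and 1212 FPKM in control libraries (limma adjusted p = 0.28). FTH1 had 456 and 462 FPKM in knockdown and 528 and 502 FPKM in control libraries (limma adjusted p = 0.24). BLVRB, a biliverdin reductase gene, had the lowest log2 change, with 20.5 and 21.2 FPKM in knockdown and 22.9 and 24.1 FPKM in control libraries (limma adjusted p = 0.24). UROD and UROS, genes of haem synthesis, stood at ratios of 1.05 and 1.02. HMOX1, the haem oxygenase gene and best known BACH1 target, was under the filter, at 0.474 and 0.325 FPKM in knockdown and 0.508 and 0.374 FPKM in control libraries.

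Proteasome genes, the main targets of NRF1, lay around 0, with more positive than negative log2 changes. Of 34 genes, 33 were in the table and all of these were tested, 21 positive and 12 negative, with a median of 0.03. Over all tested genes 46.8% were positive, with a median of -0.01. Both knockdown libraries lay above both control libraries in 13 and below in 2, layouts found in 22.5% and 27.7% of all tested genes. The median of the proteasome genes was 0.01 with the GC trend removed and -0.0025 without knockdown replicate 1. In limma 0 passed, and 3 were higher and 0 lower at an unadjusted p under 0.05, against 7.25% and 9.36% of all tested genes. POMP, an assembly factor, had the highest log2 change, with 59.8 and 68.6 FPKM in knockdown and 53.4 and 53.0 FPKM in control libraries (limma adjusted p = 0.21). PSMD8 had the lowest log2 change, at a ratio of 0.947. PSMA6, PSMB4, PSMA1 and PSMB7, the most abundant, stood at ratios of 1.15, 0.974, 1.04 and 0.962, with a limma adjusted p of 0.26 for PSMA6.

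**Figure D4:**
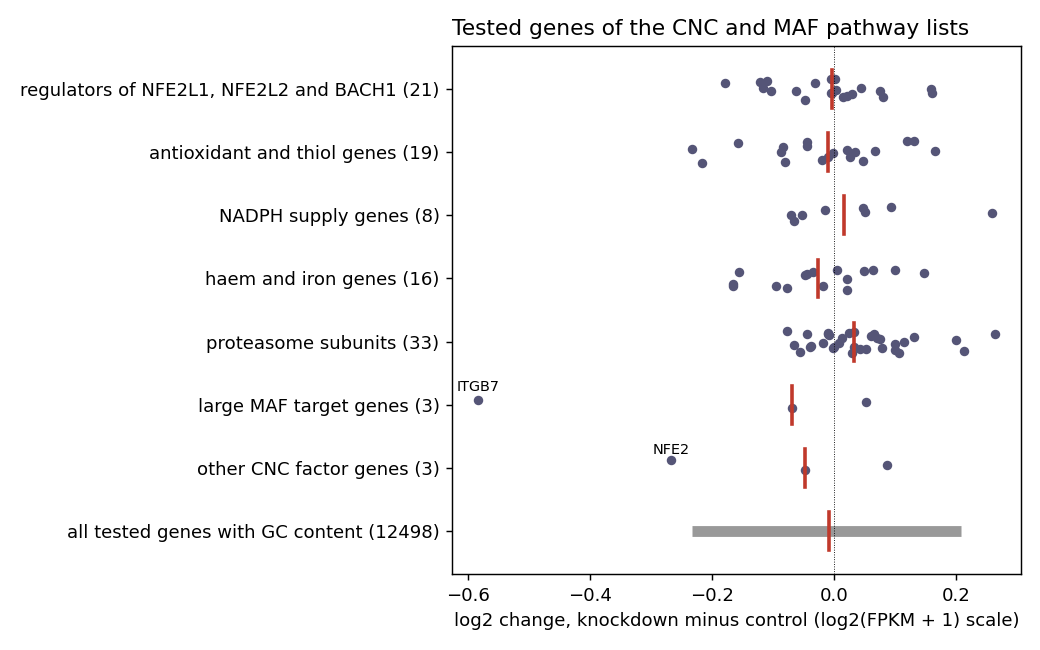
Log2 change, knockdown minus control, of the tested genes of each of the 7 pathway lists, cell type markers not included (points; number of genes in brackets), with each list's median (red line); the grey bar spans the 5th to 95th percentile of tested genes with a GC value, from -0.23 to 0.21. The medians of these 7 lists lie between -0.07 and 0.03, and ITGB7 at -0.58 stands apart.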

How the data were processed

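Polyadenylated RNA of 4 BLaER1 libraries was sequenced after TruSeq mRNA preparation, per the labels' protocols. The deposited table holds 1 value per gene and library. Its unit is not written in the file; the values were read as FPKM made by the authors, because the ID column carries Cuffdiff's name and the values are not whole. The submitters' processing notes name hg19, Cuffdiff 2.2.1, TopHat2 2.0.14 and Bowtie2 2.2.5; the annotation, the options and how libraries were scaled are not stated there.

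Knockdown was compared with control with limma 3.58.1 in R 4.3.3 on log2(FPKM + 1) in the 12934 genes averaging at least 1 FPKM, with a variance trend and Benjamini-Hochberg adjustment at 0.05; the procedure was tested on simulated data. An exact two-sided permutation test of 2 against 2 libraries cannot go below 0.333. SE values of the 9 members come from their own replicates, others from limma. Names, positions, overlaps (also starts within 1000 nt), length and GC content are from GENCODE 29 on GRCh38, not the authors' build; 96.6% of tested genes had a GC value. Depth was read from steps of FPKM times length in 1214 single-transcript genes of at least 2500 nt; 82.1% to 89.3% of low values lay within 0.15 of a whole multiple, assuming that the authors' scaling left totals unchanged.

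Named genes were the members, their overlapping genes, the nearest tested gene on each side of MAFA, the 3 genes most like it, and, per list, called genes, the 4 most abundant and the lowest and highest; lists with fewer than 5 tested genes are named in full; some list genes that this rule selects are not reported here. HMOX1, NQO1, CUL3, INS, PDX1, CCND2, DEPTOR and the cell type markers S100A8, S100A9, CD3D, CD3G and CD2 were named outside this rule, after their values were seen. The members and lists were chosen with earlier results of these data known. Alternatives were median centring, a filter at a mean of 5 FPKM or none, pseudocounts of 0.1 and 5, the replicate number as a block, quantile normalization, GC trend removal (lowess, span 0.3), a fit without the variance trend, each library left out, and other thresholds.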

Additional observations from a re-analysis of the deposited data

How the results depend on the processing

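The number of genes called across the table, 4 in the fit as reported, was 2 with a pseudocount of 0.1, 0 without a filter on low values (28016 genes tested), 1 with a mean of at least 5 FPKM, 2148 at an unadjusted p of 0.05, and 11 to 22 with 1 library left out. In the leave-one-out fits the spread of the group with a single library was taken from the other group; 2 of the 4 called genes kept their call without control replicate 0, and 2 without control replicate 1. In the 7 pathway lists, 0 genes were called under each of the 14 alternatives. Of the cell type markers named, NKG7 was called without knockdown replicate 0. The MAFA difference was negative under each of 13 alternatives, from -0.90 to -0.29, and the log2 changes of MAFG and NFE2L1 were negative under each of 14, while those of MAFF, MAFK, BACH1 and NFE2L2 took either sign. In MAFA, MAFG and NFE2L1 the groups did not overlap, so another pseudocount or a library left out could not turn the sign. A block, another filter or no variance trend leaves the log2 change as it was. These constant signs are therefore no separate support. With the replicate number as a block, 19 genes were called, and with the GC trend also removed 6. Same-numbered libraries deviated together only weakly, with a correlation of 0.12 across genes, and nothing in the labels says that the numbers pair them. The depth leaves MAF, at 0 to 0.00599 FPKM, without a usable comparison.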
